A study of Mus musculus with 9 samples.

Results

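The genes described here encode the somatic and the testis forms of glycolytic enzymes and of the enzymes that handle pyruvate. They were chosen by name as Pgk1, Pgk2, Ldha, Ldhb, Ldhc, Gapdh, Gapdhs, Pdha1, Pdha2 and Hk1, and all 10 were found among the 24505 genes of the count table. They were read in mRNA-seq libraries of germ cells sorted by fluorescence from Uchl1-EGFP testes. In this line EGFP is driven by the Uchl1 promoter, and spermatogonia are bright and preleptotene (PL) spermatocytes dim. The mice came from crosses with CD-1 animals. For its qRT-PCR the study describes sorts of cells from several males of a litter. All 3 groups had been synchronized with WIN 18,446, an inhibitor of retinoic acid (RA) synthesis, at a daily dose of 100 µg/g body weight that began at P1, and with RA at P11, injected in a volume of 10 µl at 10 µg/µl. The last day of this first course of WIN 18,446 is given as P10 in the design text and as P11 in the sample records.

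The groups held 3 libraries each. In/B (intermediate and type B) spermatogonia were taken at P17 as the EGFP-bright cells. RA-sufficient PL spermatocytes were taken at P19 as the EGFP-dim cells of mice that received nothing further. RA-deficient PL spermatocytes were taken at P19 as the EGFP-dim cells of mice in which WIN 18,446 was given again every day after the RA injection until euthanasia. The comparisons ask how mRNA abundance differed between spermatogonia and PL spermatocytes, and between PL spermatocytes formed with and without RA at the time of meiotic entry.

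Glycolysis turns glucose into pyruvate. Hexokinase (HK) phosphorylates glucose, glyceraldehyde-3-phosphate dehydrogenase (GAPDH) and phosphoglycerate kinase (PGK) act in the lower part of the pathway, lactate dehydrogenase (LDH) interconverts pyruvate and lactate, and the E1 alpha subunit of pyruvate dehydrogenase (PDH) takes part in the entry of pyruvate into the mitochondrial pathway. Male germ cells are known to use testis forms of several of these enzymes, and lactate made by Sertoli cells is known as an energy source of spermatocytes. Pgk1 and Pdha1 are on the X chromosome, which is silenced in pachytene spermatocytes, and Pgk2 and Pdha2 are autosomal retrocopies of them without introns.

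The libraries held between 12612959 and 27042274 counts on genes, so that 3 counts corresponded to between 0.111 and 0.238 counts per 1000000 (CPM). Early meiosis markers (Rec8, Sycp3, Dmc1, Meiob, Spo11, Prdm9 and Stra8) summed to between 270.2 and 594.9 CPM in In/B, 1753 and 2387 CPM in RA-sufficient PL and 2099 and 2457 CPM in RA-deficient PL. Sycp3, Dmc1, Meiob, Spo11 and Prdm9 were each higher in all PL libraries than in all In/B libraries, while Rec8 and Stra8 were not. Rec8 had 17.5, 98.4 and 96.1 CPM in In/B, 45.3, 32.1 and 30.0 CPM in RA-sufficient PL and 29.4, 39.5 and 5.86 CPM in RA-deficient PL. In RA-deficient replicates 1 and 2, Meiob (57.5 and 49.7 CPM) and Spo11 (31.6 and 27.9 CPM) were below all RA-sufficient PL libraries. Spermatid markers summed to between 2.32 and 9.48 CPM. Sertoli cell markers did not stay at a common level, as 9 of 10 markers were in the table and their sum was 70.6, 368.6 and 238.2 CPM in In/B, 3865, 2974 and 3013 CPM in RA-sufficient PL and 307.1, 318.4 and 543.9 CPM in RA-deficient PL. RA-deficient replicate 3 stood apart from the other two of its group, with 20.3 CPM of Kit, a receptor of differentiating spermatogonia, against 560.6 and 521.1 CPM, and with 89.8 CPM of Ldhc against 0.800 and 1.74 CPM. In/B libraries had 404.1, 327.4 and 331.3 CPM of Kit and RA-sufficient PL 41.0, 32.8 and 20.2 CPM. Values without RA-deficient replicate 3 are given beside the results that it changed. In bulk samples of this kind, fewer cells of a type and less RNA per cell cannot be told apart.

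The testis forms were well separated from other genes at the level of reads, while the somatic forms of PGK, GAPDH and LDH shared sequence with other places in the genome. Sequence windows of 75 bases, the length of the reads, were compared with the rest of the genome for the longest coding transcript of each gene. No window of Pgk2, Ldhc, Gapdhs or Pdha2 had a copy elsewhere, identical or with up to 3 differences. For Pgk1, 1597 of 1751 windows (91.2%) were identical to another place in the genome, and 2 other loci matched at least 50% of the transcript with 90% identity or more. For Gapdh the share was 85.4%, with 119 such loci. Of the Ldhb windows 19.3% and of the Ldha windows 7.15% were identical elsewhere, with 1 and 8 such loci, and none of the Pdha1 and Hk1 windows. With up to 3 differences allowed, the share was 91.5% for Ldhb, 91.3% for Pgk1, 88.0% for Gapdh, 70.7% for Ldha, 7.46% for Pdha1 and 2.14% for Hk1. How reads with several matches were treated in the counting is not given in the sources used here, so the levels of Pgk1, Gapdh, Ldhb and Ldha are uncertain as levels, and shares against them are given with a second scale. The isoforms themselves were distinct, as the coding sequences of Pgk2 and Pgk1 were 79.3% identical over 1254 aligned bases, those of Ldhc and Ldha 73.3% over 999 and those of Gapdhs and Gapdh 70.7% over 995.

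A gene was called where edgeR's quasi-likelihood test gave an absolute log2 fold change above 1 and a Benjamini-Hochberg adjusted p below 0.05. In RA-sufficient PL against In/B, 7 of the 10 genes were called, against 45.4% of the 15001 genes tested. Of these, 6 were higher in RA-sufficient PL (Pgk2, Ldha, Ldhb, Ldhc, Gapdhs and Pdha2) where 26.1% of all genes were, and Gapdh was lower where 19.3% were. In RA-deficient PL against In/B, 5 of 10 were called, against 23.2% of 14877 genes. Ldhb and Pdha2 were higher, where 11.4% of all genes were, and Pgk1, Gapdh and Hk1 were lower, where 11.8% were. In RA-deficient against RA-sufficient PL, 2 of 10 were called, Ldha and Ldhb, against 15.5% of 15352 genes, and both were lower, where 11% of all genes were lower and 4.47% higher. All 10 fold changes were negative in this comparison, with a median log2 fold change of -0.96 against -0.09 over all genes tested, and the same medians were 1.57 against 0.04 in RA-sufficient PL over In/B and 0.46 against 0.00 in RA-deficient PL over In/B. Both comparisons with In/B use the same 3 In/B libraries and are not independent of each other.

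The libraries of the compared groups did not overlap for 8 of the 10 genes in RA-sufficient PL against In/B, where 71.5% of all genes did not. The same held for 5 of 10 in RA-deficient PL against In/B, where 54.6% of all genes did not, and for 7 of 10 between the PL groups, where 47.4% did not.

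**Figure D1:**
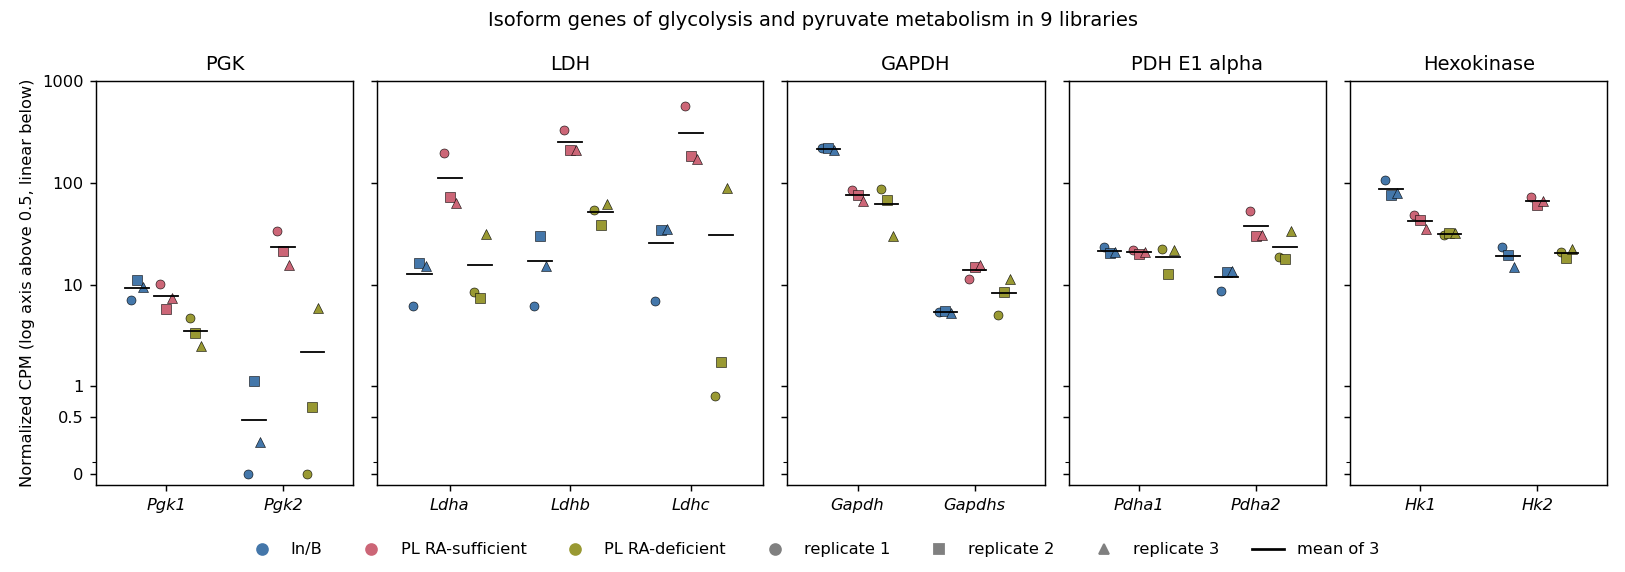
Normalized counts (CPM, log axis above 0.5 and linear below) of the 10 isoform genes and Hk2 in each of the 9 libraries, in panels by enzyme. Points are libraries, their shape gives the replicate number and the black line is the mean of 3. All 3 RA-sufficient PL libraries lie above all In/B libraries for Pgk2, the 3 Ldh genes, Gapdhs, Pdha2 and Hk2, and RA-deficient replicate 3 lies far above the other RA-deficient libraries for Pgk2 (5.90 CPM) and Ldhc (89.8 CPM).

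**Figure D2:**
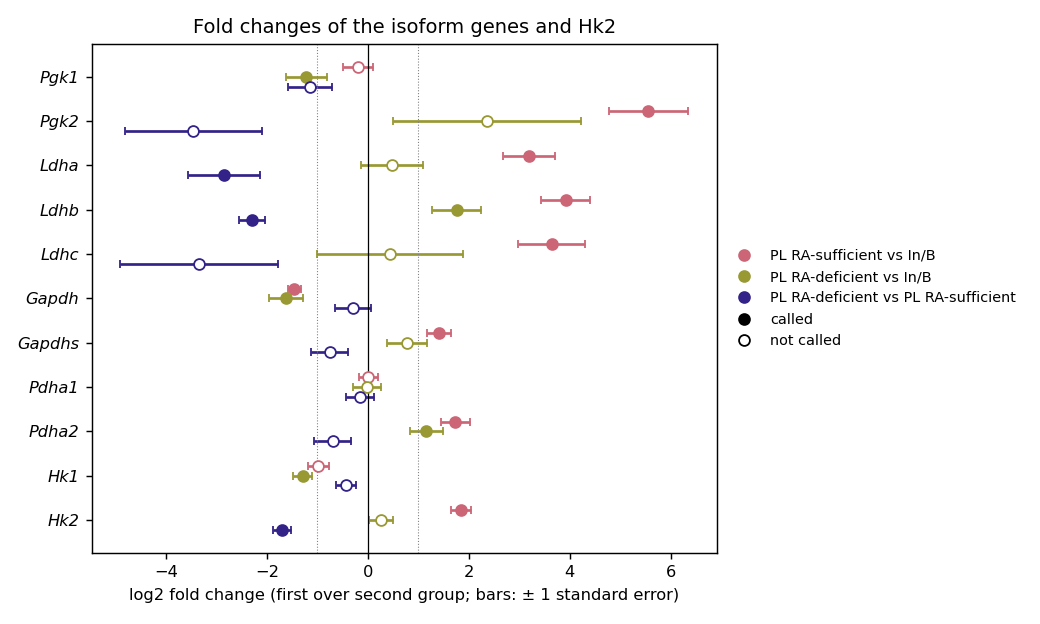
Log2 fold changes of the same genes in the 3 comparisons, with bars of 1 standard error from edgeR. Filled points were called and open points were not, and dotted lines mark the fold change threshold of 1 on either side of 0. The fold changes of Pgk2 and the 3 Ldh genes in RA-sufficient PL over In/B lie between 3.19 and 5.56, and the standard errors of Pgk2 and Ldhc in the comparisons with RA-deficient PL reach 1.87 and 1.56.

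Pgk2, the PGK of spermatocytes and spermatids, went from near 0 in spermatogonia to a clear signal in RA-sufficient PL. The gene has 1 exon and lies at chr17:40343963-40345554 on the minus strand of mm9. It had 0, 30 and 5 counts in In/B, or 0.00, 1.13 and 0.283 CPM, and the 0 allows a level of up to 0.178 CPM. RA-sufficient PL libraries had 461, 350 and 354 counts, or 33.9, 21.2 and 15.6 CPM, and RA-deficient PL libraries 0, 16 and 135 counts, or 0.00, 0.634 and 5.90 CPM. Every RA-sufficient PL library was above every other library, while RA-deficient replicates 1 and 2 lay within the In/B range. The log2 fold change was 5.56 ± 0.79 (SE) in RA-sufficient PL over In/B (adjusted p = 3.68e-04, quasi-likelihood test of edgeR, Benjamini-Hochberg adjusted). It was 7.34 without In/B replicate 2, which held most of the In/B reads. Between RA-deficient and RA-sufficient PL it was -3.46 ± 1.36 (adjusted p = 0.107), and -6.18 without RA-deficient replicate 3 (adjusted p = 0.0022). RA-deficient PL over In/B gave 2.36 ± 1.87 (adjusted p = 0.376), which turned to -0.39 without that library and was 4.02 without In/B replicate 2.

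Pgk1, the PGK of somatic cells, is on the X chromosome at chrX:103382439-103399038, on the plus strand, with 11 exons. In/B libraries had 127, 291 and 168 counts, RA-sufficient PL 138, 95 and 167 and RA-deficient PL 117, 85 and 57, with mean levels of 9.20 ± 1.97, 7.76 ± 2.23 and 3.51 ± 1.10 CPM (SD, n = 3). The In/B and RA-sufficient PL ranges overlapped, with a log2 fold change of -0.19 ± 0.30 (adjusted p = 0.596), and all RA-deficient PL libraries were below all others. RA-deficient PL over In/B was -1.22 ± 0.40 (adjusted p = 0.047), a call that was lost without In/B replicate 1, 2 or 3 or RA-deficient replicate 2 (adjusted p = 0.0619, 0.184, 0.155 and 0.0942). The log2 fold change between RA-deficient and RA-sufficient PL was -1.15 ± 0.44 (adjusted p = 0.0964). As most Pgk1 windows have a copy elsewhere, these are changes in the reads that were counted for the gene.

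The sequence before the start of Pgk2 is shown because this gene had the largest fold change of the 10 in RA-sufficient PL over In/B. It is the 250 bases before the RefSeq start on GRCm38.p6, chr17:40208610-40208859 on the minus strand.
Pgk2: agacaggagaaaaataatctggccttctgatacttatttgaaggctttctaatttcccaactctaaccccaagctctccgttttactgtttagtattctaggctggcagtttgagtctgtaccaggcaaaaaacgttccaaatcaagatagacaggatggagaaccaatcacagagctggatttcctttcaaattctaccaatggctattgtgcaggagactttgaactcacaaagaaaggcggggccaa
No match was found in these letters to the motifs searched on both strands, TGACG (the core of a cAMP response element, which is part of its full site TGACGTCA), CNCCTCAG (described for STRA8 and MEIOSIN), AGGTCA (the repeated unit of RA receptor elements) and GGGCGG (the GC box). These letters occur in 17.8%, 6.42%, 14.0% and 32.7% of 32851 windows of the same length.

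The LDH genes rose together in RA-sufficient PL. Ldhc encodes the LDH subunit of the testis, Ldha the subunit abundant in muscle and Ldhb the one abundant in heart. In mm9 Ldha (chr7:54096845-54110997) and Ldhc (chr7:54116573-54133512) are neighbors on the plus strand, and Ldhb is at chr6:142438769-142456477 on the minus strand, each with 8 exons. Summed per kb of exons, the 3 genes reached 32.9 ± 19.4 CPM per kb in In/B (SD, n = 3), 403.9 ± 217.9 CPM per kb in RA-sufficient PL and 59.4 ± 44.4 CPM per kb in RA-deficient PL. The RA-deficient libraries had 38.8, 29.1 and 110.3 CPM per kb, so that their mean without replicate 3 was 33.9 CPM per kb. Windows before their starts are shown because all 3 genes rose in RA-sufficient PL over In/B and Ldha and Ldhc are adjacent. They are the 250 bases before the first RefSeq start on GRCm38.p6, chr7:46845554-46845803 (plus strand) for Ldha, chr7:46861013-46861262 (plus strand) for Ldhc and chr6:142507958-142508207 (minus strand) for Ldhb. Capitals mark TGACG, or TGACGTCA where it is whole, and CNCCTCAG, on either strand.
Ldha: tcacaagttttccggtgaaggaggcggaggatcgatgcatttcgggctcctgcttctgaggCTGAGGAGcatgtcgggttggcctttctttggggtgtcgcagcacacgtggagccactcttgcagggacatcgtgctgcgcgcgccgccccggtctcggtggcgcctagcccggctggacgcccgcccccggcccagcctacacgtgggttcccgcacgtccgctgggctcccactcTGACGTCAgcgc
Ldhc: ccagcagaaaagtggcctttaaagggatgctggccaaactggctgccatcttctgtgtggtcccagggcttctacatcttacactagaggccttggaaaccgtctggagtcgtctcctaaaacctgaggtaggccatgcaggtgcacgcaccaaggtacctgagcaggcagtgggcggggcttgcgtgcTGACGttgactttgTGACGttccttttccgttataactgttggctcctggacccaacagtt
Ldhb: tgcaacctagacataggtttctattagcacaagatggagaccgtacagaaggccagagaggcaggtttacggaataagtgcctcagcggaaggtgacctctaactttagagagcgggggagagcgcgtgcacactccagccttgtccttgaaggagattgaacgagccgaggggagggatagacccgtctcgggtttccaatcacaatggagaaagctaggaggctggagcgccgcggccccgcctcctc
The Ldha window held TGACGTCA starting 12 bases before the start, a site found in 1.55% of all windows, and a reverse match to CNCCTCAG 189 bases before it. The Ldhc window held TGACG 61 and 47 bases before the start. The Ldhb window held neither and had a reverse match to AGGTCA 157 bases before the start. Of the other genes, the windows before the first start of Gapdhs and Pdha1 held CNCCTCAG, 30 and 83 bases before it, that of Pdha2 a reverse match to AGGTCA 69 bases before it and that of Pgk1 a GC box. CNCCTCAG was thus found before Ldha and Gapdhs, which rose in RA-sufficient PL, and before Pdha1, which did not pass the test. The full RA response element (a direct repeat of AGGTCA with a spacing of 5 bases) was in none of the windows of the 10 genes and in 0.00913% of all windows. A match describes letters and is not evidence of binding.

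Ldhc had 123, 905 and 626 counts in In/B, 7640, 3021 and 3881 in RA-sufficient PL and 20, 44 and 2053 in RA-deficient PL. In CPM these were 6.88, 34.2 and 35.4 in In/B, 562.3, 183.2 and 171.2 in RA-sufficient PL and 0.800, 1.74 and 89.8 in RA-deficient PL. RA-sufficient PL was above every other library, whereas the RA-deficient libraries lay on both sides of the In/B range, with 2 below it and replicate 3 above it. The log2 fold change of RA-sufficient PL over In/B was 3.64 ± 0.67 (adjusted p = 0.00144). It was 2.85 without RA-sufficient replicate 1, and with all 9 libraries in a single fit it was 3.60 with an adjusted p of 0.0562. RA-deficient over RA-sufficient PL gave -3.35 ± 1.56 (adjusted p = 0.163) with all libraries and -7.89 without RA-deficient replicate 3 (adjusted p = 4.35e-04). The value without RA-sufficient replicate 1 was -2.52, and without RA-deficient replicate 1 or 2 it was -2.73 or -2.74. In RA-deficient PL over In/B the log2 fold change was 0.44 ± 1.44 (adjusted p = 0.845), and without RA-deficient replicate 3 it was -4.14 (adjusted p = 0.00353), so that the direction rests on 1 library.

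Ldhb separated the 3 groups without overlap. In/B libraries had 6.21, 30.0 and 15.4 CPM, RA-sufficient PL 327.7, 211.8 and 212.4 CPM and RA-deficient PL 54.0, 38.6 and 61.5 CPM. All RA-deficient PL libraries were above all In/B libraries and below all RA-sufficient PL libraries. Ldhb rose in RA-sufficient PL over In/B by 3.92 ± 0.49 on the log2 scale (adjusted p = 1.89e-04), or by 4.57 without In/B replicate 2. It was lower in RA-deficient than in RA-sufficient PL, at -2.30 ± 0.26 (adjusted p = 0.00202), and this call held with each library left out, at -2.43 without RA-deficient replicate 3. RA-deficient PL over In/B was 1.76 ± 0.49 (adjusted p = 0.0244), a call lost without In/B replicate 3 or RA-deficient replicate 1 (adjusted p = 0.0888 and 0.0639), and the value was 2.38 without In/B replicate 2.

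Ldha had 6.09, 16.4 and 15.4 CPM in In/B, 197.7, 71.8 and 63.1 CPM in RA-sufficient PL and 8.40, 7.41 and 31.2 CPM in RA-deficient PL. RA-sufficient PL lay above both other groups, which overlapped each other. Ldha rose by 3.19 ± 0.52 on the log2 scale in RA-sufficient PL over In/B (adjusted p = 7.61e-04), or by 2.47 without RA-sufficient replicate 1. RA-deficient over RA-sufficient PL was -2.85 ± 0.72 (adjusted p = 0.0283). This call was lost without RA-sufficient replicate 1 (-2.09, adjusted p = 0.0908) or 2 (adjusted p = 0.0542) and without RA-deficient replicate 1 or 2 (adjusted p = 0.0771 and 0.0711), and the value was -3.80 without RA-deficient replicate 3. RA-deficient PL over In/B gave 0.48 ± 0.62 (adjusted p = 0.591), and -0.50 without RA-deficient replicate 3.

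Of the LDH genes, the Sertoli cell markers moved most closely with Ldhb and least closely with Ldhc. All 9 markers in the table (Sox9, Wt1, Amh, Clu, Inha, Gata4, Dhh, Cldn11 and Vim) had a mean of at least 1 CPM in both PL groups, and Clu alone, a secreted chaperone, had between 1849 and 2519 CPM in RA-sufficient PL. Per 1000 CPM of summed Sertoli markers, Ldhb stood at 87.9, 81.4 and 64.5 CPM in In/B, 84.8, 71.2 and 70.5 CPM in RA-sufficient PL and 175.8, 121.1 and 113.1 CPM in RA-deficient PL. The highest of these 9 ratios was 2.72 times the lowest, while Ldhb itself spanned 52.8-fold between libraries. For Ldha the ratios spanned 4.12-fold and the level 32.4-fold, and for Ldhc 63.4-fold and 703-fold. For the other genes above 0 in all libraries, the span of the ratio was larger than that of the level, for example 12.2-fold against 6.09-fold for Pdha2. This scaling was chosen after the values were seen, and the part of Sertoli cell RNA in these results was not tested. Both PL groups were sorted as EGFP-dim cells, and whether their gates were the same is not given in the sources used here.

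**Figure D3:**
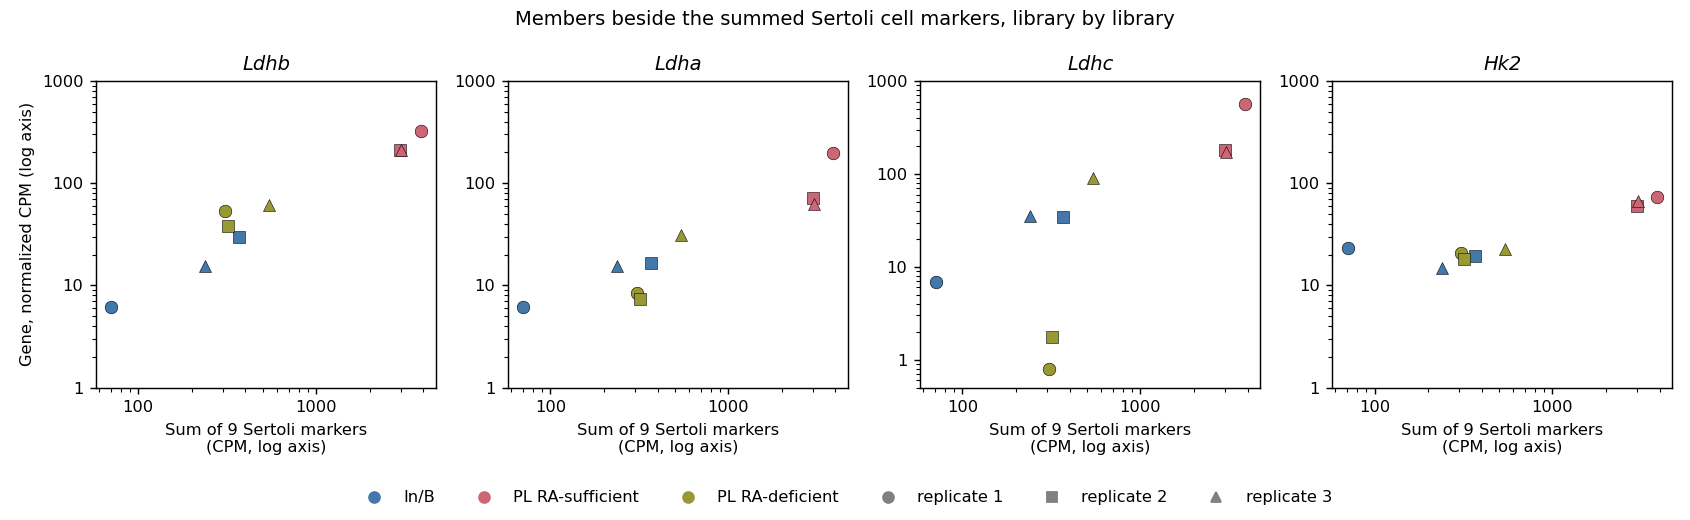
Normalized CPM of Ldhb, Ldha, Ldhc and Hk2 (log axis) against the summed CPM of 9 Sertoli cell markers (log axis), where each point is a library, the color gives the group and the shape the replicate number. Ldhb rises with the marker sum from In/B replicate 1 (70.6 and 6.21 CPM) to RA-sufficient replicate 1 (3865 and 327.7 CPM), and RA-deficient replicates 1 and 2 lie far below the other libraries for Ldhc (0.800 and 1.74 CPM).

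Gapdh, which makes the GAPDH of somatic cells, fell in both PL groups, and Gapdhs, the GAPDH of sperm, rose in RA-sufficient PL. Gapdh lies at chr6:125111871-125116485 and Gapdhs at chr7:31514799-31528700, both on the minus strand of mm9, with 7 and 11 exons. Gapdh had 220.7, 217.8 and 208.0 CPM in In/B, 84.2, 76.3 and 66.3 CPM in RA-sufficient PL and 87.5, 68.2 and 29.9 CPM in RA-deficient PL. Both PL groups lay below In/B and overlapped each other. The log2 fold change was -1.46 ± 0.13 in RA-sufficient PL over In/B (adjusted p = 3.24e-05) and -1.63 ± 0.34 in RA-deficient PL over In/B (adjusted p = 0.00731), and both calls held with each library left out. Between the PL groups it was -0.30 ± 0.36 (adjusted p = 0.591), and 0.05 without RA-deficient replicate 3. Because 85.4% of the Gapdh windows have identical copies, these values are counts that reached the gene and may hold reads of its copies.

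Gapdhs had 5.42, 5.56 and 5.31 CPM in In/B, 11.3, 15.0 and 15.4 CPM in RA-sufficient PL and 5.08, 8.40 and 11.2 CPM in RA-deficient PL. The spread within In/B was small and RA-sufficient PL lay above both other groups, which overlapped. The log2 fold change was 1.41 ± 0.24 in RA-sufficient PL over In/B (adjusted p = 0.001), 0.77 ± 0.40 in RA-deficient PL over In/B (adjusted p = 0.171) and -0.76 ± 0.36 between RA-deficient and RA-sufficient PL (adjusted p = 0.171). The last became a call without RA-deficient replicate 3, at -1.04 (adjusted p = 0.0426).

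Of the E1 alpha genes of PDH, the autosomal retrocopy moved and the X-linked parent did not pass the test. Pdha2 has 1 exon at chr3:140872968-140875319, on the minus strand of mm9. It had 8.61, 13.3 and 13.5 CPM in In/B, 52.4, 29.8 and 30.8 CPM in RA-sufficient PL and 18.8, 17.9 and 33.9 CPM in RA-deficient PL. All PL libraries were above all In/B libraries, and the PL groups overlapped through RA-deficient replicate 3. Pdha2 rose in RA-sufficient PL over In/B by 1.73 ± 0.29 on the log2 scale (adjusted p = 8.37e-04). In RA-deficient PL over In/B it rose by 1.16 ± 0.33 (adjusted p = 0.0263), a call lost without In/B replicate 1, 2 or 3 (adjusted p = 0.0901, 0.0765 and 0.0662) and, by its fold change of 0.81, without RA-deficient replicate 3. Between RA-deficient and RA-sufficient PL it was -0.70 ± 0.36 (adjusted p = 0.202), and -1.03 without RA-deficient replicate 3 (adjusted p = 0.0257).

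Pdha1 lies at chrX:156560141-156576345, on the minus strand with 11 exons, and overlaps Map3k15 on the opposite strand, whose reads could be shared as the strand setting of the counting is not given in the sources used here. In/B had 23.3, 20.3 and 20.8 CPM, RA-sufficient PL 21.7, 19.8 and 21.0 CPM and RA-deficient PL 22.3, 12.6 and 21.6 CPM. The groups overlapped, and the log2 fold changes were 0.01 ± 0.18 in RA-sufficient PL over In/B, -0.02 ± 0.27 in RA-deficient PL over In/B and -0.15 ± 0.28 between the PL groups (adjusted p = 0.964, 0.957 and 0.727). Their signs changed with the processing. Pdha1 and Pgk1 are thus both X-linked parents whose reads did not pass the test in RA-sufficient PL over In/B, while the reads of both retrocopies rose.

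Hk1, the hexokinase of most tissues, was called lower in RA-deficient PL than in In/B and lay at the fold change threshold in RA-sufficient PL, and Hk2, the hexokinase abundant in muscle, rose in RA-sufficient PL. Hk1 lies at chr10:61731603-61842656 on the minus strand with 22 exons, and overlaps a noncoding gene on the opposite strand. It has several start sites, and counts per gene do not separate its testis transcripts from the somatic ones. In/B libraries had 106.7, 75.1 and 79.0 CPM of Hk1, RA-sufficient PL 48.7, 43.6 and 34.9 CPM and RA-deficient PL 30.9, 32.4 and 31.8 CPM. The 3 groups did not overlap. RA-deficient PL over In/B was -1.29 ± 0.19 (adjusted p = 0.00149), which held with each library left out. RA-sufficient PL over In/B was -0.98 ± 0.20 (adjusted p = 0.00217), just inside the fold change threshold, and it was called without In/B replicate 2 or 3 (-1.11 and -1.06), without RA-sufficient replicate 1 or 2 (-1.11 and -1.01), and with library size scaling, no filter on low counts or all 9 libraries in a single fit (-1.003, -1.014 and -1.029). The PL groups differed by -0.43 ± 0.20 (adjusted p = 0.17).

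Hk2 had 23.2, 19.4 and 15.0 CPM in In/B, 73.0, 60.4 and 66.4 CPM in RA-sufficient PL and 20.8, 18.2 and 22.6 CPM in RA-deficient PL. RA-sufficient PL lay far above the other groups, which overlapped. The log2 fold change was 1.85 ± 0.20 in RA-sufficient PL over In/B (adjusted p = 8.23e-05) and -1.71 ± 0.18 between RA-deficient and RA-sufficient PL (adjusted p = 0.00175), both calls, and 0.26 ± 0.24 in RA-deficient PL over In/B (adjusted p = 0.449). Its ratio to the summed Sertoli markers spanned 17.4-fold over the libraries and its level 4.87-fold.

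The balance within each family was compared as the log2 ratio of counts of 2 isoforms in the same library, which does not depend on library scaling. With 3 libraries against 3 the exact two-sided permutation test cannot go below p = 0.10, and over the 21 ratios compared the smallest Benjamini-Hochberg adjusted p was 0.21, so none could pass. The ratio of Pgk2 to Pgk1 was -7.99, -3.26 and -4.94 in In/B, 1.74, 1.88 and 1.08 in RA-sufficient PL and -7.88, -2.37 and 1.24 in RA-deficient PL. RA-sufficient PL was above In/B in all libraries, by 6.96 in the mean (exact permutation p = 0.1), and the RA-deficient libraries reached from the In/B range into that of RA-sufficient PL. The values of -7.99 and -7.88 come from libraries with 0 Pgk2 counts. Their size, and with it that of the mean difference, rests on the 0.5 added to each count. Gapdhs to Gapdh was -5.30 ± 0.03 in In/B (SD, n = 3), -2.45 ± 0.40 in RA-sufficient PL and -2.84 ± 1.35 in RA-deficient PL, and Pdha2 to Pdha1 was -0.89 ± 0.47, 0.80 ± 0.40 and 0.30 ± 0.48. In both pairs the PL groups lay above In/B without overlap (exact permutation p = 0.1 each) and overlapped each other.

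Hk1 to Hk2 was the ratio that separated all 3 groups, at 2.20, 1.95 and 2.40 in In/B, -0.59, -0.47 and -0.93 in RA-sufficient PL and 0.57, 0.83 and 0.50 in RA-deficient PL (exact permutation p = 0.1 in each comparison). Ldhc to Ldha was 0.17, 1.06 and 1.20 in In/B, 1.51, 1.35 and 1.44 in RA-sufficient PL and -3.36, -2.08 and 1.52 in RA-deficient PL. RA-sufficient PL lay above In/B without overlap, by 0.62 in the mean (exact permutation p = 0.1). RA-deficient replicates 1 and 2 had less Ldhc than Ldha, and replicate 3 had the ratio of the RA-sufficient libraries. Ldhc to Ldhb, in the same way, was -6.04, -4.45 and 0.54 in RA-deficient PL, against means of 0.51 in In/B and 0.09 in RA-sufficient PL. The ratio of Ldhb to Ldha was 0.30 ± 0.50 in In/B, 1.35 ± 0.54 in RA-sufficient PL and 2.01 ± 0.91 in RA-deficient PL.

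As shares of family reads per kb of exons, Pgk2 took 4.62% ± 5.41 of PGK reads in In/B, 77.0% ± 5.39 in RA-sufficient PL and 30.3% ± 38.1 in RA-deficient PL (SD, n = 3). Counted instead per window without an identical copy, a scale added after the copies were seen, the Pgk2 shares were 0.445%, 23.4% and 7.08%, since only 154 Pgk1 windows are free of copies. Gapdhs took 2.37%, 15.2% and 14.2% of GAPDH reads per kb, and 0.358%, 2.61% and 2.54% per window, and its RA-deficient libraries had 5.29%, 10.6% and 26.6% per kb. On both scales the order of the group means was the same and the sizes of the shares were not. Pdha2 took 39.7%, 67.7% and 59.7% of the E1 alpha reads in the same order of groups. Hk1 took 81.2%, 37.7% and 59.7% of Hk1 and Hk2 reads per kb. Ldhc held 47.0%, 45.0% and 18.9% of the summed Ldha, Ldhb and Ldhc reads per kb, Ldhb 33.4%, 43.0% and 69.6% and Ldha 19.6%, 12.0% and 11.6%. Per window without an identical copy these were 41.9%, 39.4% and 16.6% for Ldhc, 38.4%, 48.6% and 72.6% for Ldhb and 19.8%, 12.0% and 10.8% for Ldha. The Ldhc and Ldhb shares of In/B and RA-sufficient PL overlapped, and all RA-sufficient PL libraries had a lower Ldha share than all In/B libraries. In RA-deficient replicates 1 and 2 Ldhb made up 88.7% and 84.5% of the reads of these LDH genes per kb and Ldhc 1.31% and 3.80%, while in replicate 3 they made up 35.5% and 51.5%. Ldhal6b, a further LDH gene of the pathway lists, was not part of these sums. Its means were 7.07 ± 4.63 CPM in In/B, 92.5 ± 62.4 CPM in RA-sufficient PL and 8.2 ± 12.3 CPM in RA-deficient PL (SD, n = 3). In RA-deficient PL over In/B its log2 fold change was 0.39, and -2.46 without RA-deficient replicate 3 (adjusted p = 0.85 and 0.0882, edgeR). Between RA-deficient and RA-sufficient PL it was -3.53, and -6.33 without that library (adjusted p = 0.0981 and 0.00172, edgeR).

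**Figure D4:**
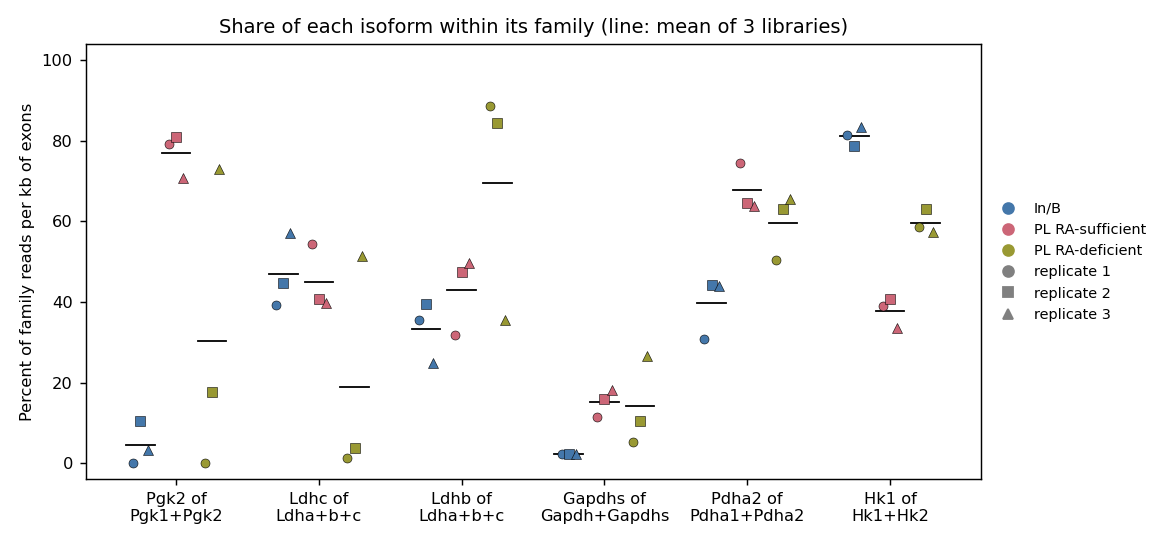
Share of an isoform in the reads of its family per kb of exons (percent), for each library, with the mean of 3 libraries as a black line. The color gives the group and the shape the replicate number. The Pgk2, Gapdhs and Pdha2 shares are higher in RA-sufficient PL than in In/B in all libraries, and RA-deficient replicate 3 differs from replicates 1 and 2 for Pgk2 (73.1% against 0% and 17.8%) and for Ldhc (51.5% against 1.31% and 3.80%).

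The levels of the 10 genes and Hk2 per kb of exons gave a different order in each group. In In/B, Gapdh led with 144.2 ± 4.45 CPM per kb, followed by Ldhc (16.1), Hk1 (13.9), Ldhb (10.9), Pdha1 (7.54), Ldha (5.80), Pgk1 (5.04), Pdha2 (5.02), Gapdhs (3.50), Hk2 (3.22) and Pgk2 (0.297). Only Gapdh, the pair of Gapdhs and Hk2, and Pgk2 were separated from their neighbors in this order. In RA-sufficient PL the order was Ldhc (193.4), Ldhb (159.6), Ldha (50.9), Gapdh (50.6), Pdha2 (16.0), Pgk2 (14.8), Hk2 (11.2), Gapdhs (8.96), Pdha1 (7.32), Hk1 (6.79) and Pgk1 (4.25 CPM per kb). Libraries of neighbors overlapped except between Ldhb and Ldha, Gapdh and Pdha2, Hk2 and Gapdhs, and Hk1 and Pgk1. RA-deficient PL was led by Gapdh (41.4), Ldhb (32.7) and Ldhc (19.5 ± 32.3 CPM per kb), which overlapped, and ended with Pgk1 (1.93) and Pgk2 (1.37), and only Hk1, Hk2 and Pgk1 were separated from the gene before or after them. Without replicate 3 the means of Ldhc, Ldha and Pgk2 in RA-deficient PL were 0.805, 3.63 and 0.199 CPM per kb. The levels of Pgk1, Gapdh, Ldhb and Ldha carry the uncertainty of their copies.

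RA-deficient replicate 3 decided more of the comparison between the PL groups than any other library. Without it, 6 of the 10 genes were called lower in RA-deficient PL (Pgk2, Ldha, Ldhb, Ldhc, Gapdhs and Pdha2), against 2 with it, while the calls over all genes went from 15.5% to 28.4%. These 6 were also higher in RA-sufficient PL than in In/B, a comparison that shares the RA-sufficient libraries. RA-deficient PL against In/B had 5 of 10 called with and without it, but Ldhc was then lower and Pdha2 was no longer called, with 26.1% of all genes called. Leaving out any other single library gave 1 or 2 calls between the PL groups, where between 7.51% and 11.2% of all genes were called. The 7 spermatogonial markers summed to 5349, 3810 and 3657 CPM in In/B, 807.6, 927.8 and 810.7 CPM in RA-sufficient PL and 3124, 3252 and 1320 CPM in RA-deficient PL. These markers were Kit, Dmrt1, Sohlh1, Sohlh2, Uchl1, Ccnd2 and Dmrtb1. By this sum RA-deficient replicates 1 and 2 were nearer to In/B and replicate 3 nearer to RA-sufficient PL. Most of the sum was Uchl1, whose promoter drives the EGFP of the sort, so the sum is not independent of the sort. Uchl1 had 3657, 2451 and 2352 CPM in In/B and 424.9, 613.4 and 524.7 CPM in RA-sufficient PL. In RA-deficient PL it had 1728, 1885 and 990.6 CPM. Not every marker followed the sum. Dmrtb1 had 366.2, 328.3 and 281.0 CPM in In/B and 161.8, 70.69 and 79.8 CPM in RA-sufficient PL. It had 93.45, 81.78 and 65.01 CPM in RA-deficient PL. The 8 pachytene markers summed to 178.9, 276.9 and 255.7 CPM in In/B, 1396, 836.3 and 909.3 CPM in RA-sufficient PL and 702.0, 773.3 and 1325 CPM in RA-deficient PL. The sum of replicate 3 was within the RA-sufficient range, but its single markers were mixed. Piwil1, Hspa2 and Pou5f2 were within that range. Ybx2 (797.8 CPM) and Mybl1 (226.1 CPM) lay above it, and Ccna1 (6.30 CPM), Ovol1 (2.93 CPM) and Spag6 (0.612 CPM) lay below it. Replicate 3 had 81.5 CPM of Stra8, an RA target of meiotic entry, against 377.0 and 365.4 CPM, and RA-sufficient PL had 444.1, 126.2 and 120.6 CPM. The part of these differences in the values of the isoform genes was not tested.

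**Figure D5:**
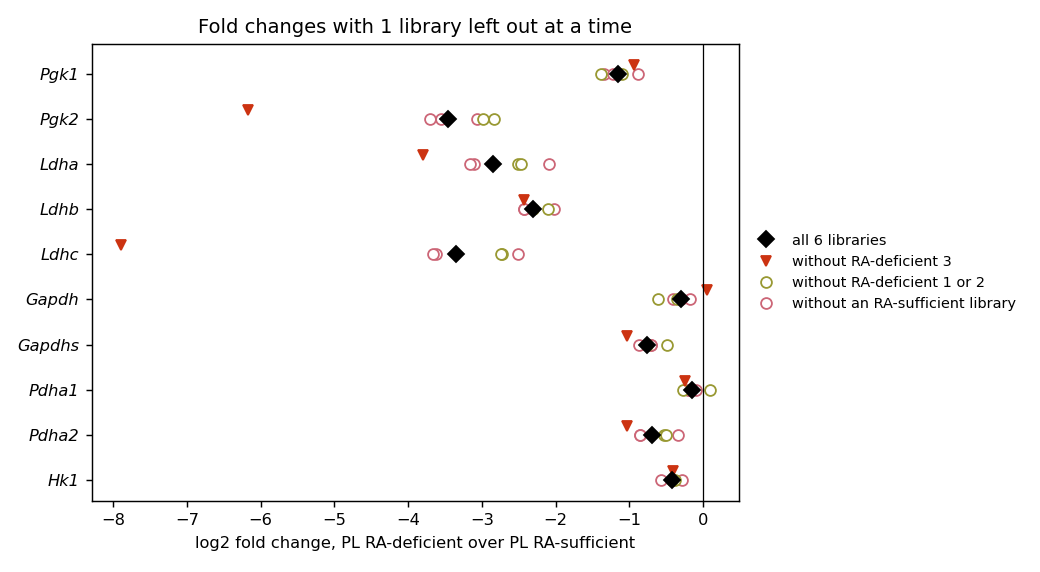
Log2 fold changes of the 10 genes in RA-deficient over RA-sufficient PL with all 6 libraries (diamonds) and with 1 library left out at a time (other symbols). Without RA-deficient replicate 3 (filled triangles) the value of Ldhc moves from -3.35 to -7.89 and that of Pgk2 from -3.46 to -6.18, while that of Ldhb stays between -2.43 and -2.03 with 1 library left out at a time.

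The other genes of the pathway were taken from lists of 24 glycolysis enzymes, 5 glycolysis regulators and 16 pyruvate and lactate genes. In RA-sufficient PL against In/B, 18 of the 39 that could be tested were called higher and 5 lower (59.0% in all, against 45.4% of all genes), with a median log2 fold change of 0.70. In RA-deficient PL against In/B, 5 were higher and 6 lower of 39 (28.2% against 23.2%), with a median of 0.26. Between the PL groups 1 was higher and 13 lower of 40 (35.0% against 15.5%), with a median of -0.81, and the number called was 21 without RA-deficient replicate 3, where 28.4% of all genes were called, and between 8 and 9 without any other library, where between 7.51% and 11.2% were. All 14 genes called between the PL groups and all 11 called in RA-deficient PL against In/B were also called without RA-deficient replicate 3, in the same direction and with log2 fold changes that moved by at most 0.74 and 0.39. Of the glycolysis enzymes alone, 12 of 19 were called higher and 2 lower in RA-sufficient PL over In/B, where 26.1% of all genes were higher and 19.3% lower. In RA-deficient over RA-sufficient PL 8 were lower and 1 higher, where 11% of all genes were lower and 4.47% higher.

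Phosphofructokinase catalyzes the committed step of glycolysis. Pfkl, its liver form, rose from a mean of 5.52 CPM in In/B to 90.8 CPM in RA-sufficient PL, a log2 fold change of 4.09 ± 0.22, and was at 6.06 CPM in RA-deficient PL, -3.91 ± 0.48 against RA-sufficient PL (adjusted p = 0.00261, quasi-likelihood test of edgeR, Benjamini-Hochberg adjusted). Pfkm, the muscle form, rose by 2.66 ± 0.16 on the log2 scale in RA-sufficient PL over In/B and was lower in RA-deficient than in RA-sufficient PL, at -1.73 ± 0.46, or -2.46 without RA-deficient replicate 3. Pfkfb3, which makes the activator of phosphofructokinase, rose by 2.82 ± 0.24 in RA-sufficient PL and by 1.03 ± 0.34 in RA-deficient PL over In/B and was lower in RA-deficient than in RA-sufficient PL (-1.91 ± 0.35, adjusted p = 0.00959). Pfkfb4 and Tigar were lower in RA-deficient than in RA-sufficient PL as well, at -2.66 ± 0.46 and -1.71 ± 0.34, and lower than in In/B, at -2.09 ± 0.48 and -1.43 ± 0.27. Pfkfb1 was lower in both PL groups than in In/B, at -1.45 ± 0.32 and -2.33 ± 0.45. Pfkl, Pfkm, Pfkfb3 and Hk2 had their highest means in RA-sufficient PL, as the Sertoli markers did, whose sum there was 3284 ± 503.7 CPM against 225.8 ± 149.4 CPM in In/B and 389.8 ± 133.6 CPM in RA-deficient PL, and the part of this in their values was not tested.

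Other enzymes followed several different patterns over the groups. Gpi1, glucose-6-phosphate isomerase, fell from 453.2 CPM in In/B to 112.3 CPM in RA-sufficient PL (-1.96 ± 0.15) and was higher in RA-deficient than in RA-sufficient PL by 1.34 ± 0.24 (adjusted p = 0.00918). Pkm, the pyruvate kinase of muscle and many other tissues, rose in both PL groups over In/B, by 1.54 ± 0.17 and 1.49 ± 0.18, and Bpgm, which makes bisphosphoglycerate, was lower in both, at -1.17 ± 0.19 and -2.05 ± 0.20, and lower in RA-deficient than in RA-sufficient PL. Aldoa and Tpi1, an aldolase and the triosephosphate isomerase, were higher in RA-sufficient PL than in In/B, at 1.19 ± 0.24 and 1.38 ± 0.27, and lower in RA-deficient than in RA-sufficient PL, at -1.29 ± 0.18 and -1.49 ± 0.36. Eno2, an enolase, rose in both PL groups over In/B, by 2.27 ± 0.64 in RA-sufficient PL and 3.64 ± 0.74 in RA-deficient PL, with means of 1.04, 4.96 and 11.6 CPM in In/B, RA-sufficient PL and RA-deficient PL. Pgam1, a phosphoglycerate mutase, was lower in RA-deficient PL than in In/B (-1.40 ± 0.35) and than in RA-sufficient PL (-1.39 ± 0.36).

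Around pyruvate, Pdk1, a kinase that inhibits PDH, rose by 2.01 ± 0.14 in RA-sufficient PL over In/B and was lower in RA-deficient than in RA-sufficient PL (-1.79 ± 0.16, adjusted p = 9.55e-04). Pdk2, another such kinase, was lower in both PL groups than in In/B (-1.13 ± 0.18 and -2.02 ± 0.18), and lower in RA-deficient than in RA-sufficient PL (-1.01 ± 0.24). Pcx, pyruvate carboxylase, rose in both over In/B, by 2.02 ± 0.16 and 2.74 ± 0.10, to means of 413.5 and 626.6 CPM. Pdhb, the E1 beta subunit that pairs with the products of Pdha1 and Pdha2, was lower in RA-sufficient PL than in In/B at -1.02 ± 0.13. In RA-deficient PL over In/B it was at -0.86 ± 0.15, inside the fold change threshold and not called, and the PL groups differed by 0.04 ± 0.20. Mpc1, a subunit of the mitochondrial pyruvate carrier, was higher in both PL groups than in In/B, at 1.88 ± 0.34 in RA-sufficient PL and 1.36 ± 0.42 in RA-deficient PL.

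Other autosomal retrogenes with X-linked parents were set beside Pgk2 and Pdha2. Of Cetn1, Cstf2t, Rbmxl2, Rpl10l and Utp14b, 1 of 5 was called in RA-sufficient PL over In/B (Cetn1, 3.97 ± 0.63), against 45.4% of all genes, and 2 of 5 in RA-deficient PL over In/B (Rpl10l, 1.32 ± 0.24, and Rbmxl2, 1.27 ± 0.23), against 23.2%. In RA-sufficient PL over In/B these 2 genes were at 0.90 ± 0.18 and 0.60 ± 0.37 and were not called. Of their parents Cetn2, Cstf2, Rbmx, Rpl10 and Utp14a, 2 of 5 were called in RA-sufficient PL over In/B, both lower (Cetn2, -1.60 ± 0.20, and Utp14a, -1.36 ± 0.17), where 45.4% of all genes were called and 19.3% were lower. In RA-deficient PL over In/B 3 of 5 were called, as Cstf2 was higher (1.17 ± 0.11) and Cetn2 (-1.43 ± 0.21) and Rbmx (-1.12 ± 0.28) were lower. Of all genes 23.2% were called there, 11.4% higher and 11.8% lower. Between the PL groups, with all libraries, 0 of 5 retrogenes and 0 of 5 parents were called, against 15.5% of all genes. The mean of Cetn1 was 3.72 CPM in In/B, 56.4 CPM in RA-sufficient PL and 3.41 CPM in RA-deficient PL, whose libraries had 0.00, 0.792 and 9.44 CPM. Between the PL groups the log2 fold change of Cetn1 was -4.08 ± 1.45 (adjusted p = 0.0822), and -7.11 ± 1.03 without RA-deficient replicate 3 (adjusted p = 0.00174, quasi-likelihood test of edgeR). In RA-deficient PL over In/B it was 0.05 ± 1.48 (adjusted p = 0.985), and -3.03 ± 1.32 without that library (adjusted p = 0.0988). All 5 retrogenes and parents called in RA-deficient PL over In/B were also called without it.

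Genes with the most similar pattern over the 9 libraries were found by the root mean square difference of log2(CPM + 1) after each gene was centered on its own mean, among 9693 or 9694 genes whose mean reached 10 CPM. For Pgk2 these were Ccdc30 (0.266), Rsph6a (0.279) and 1700028J19Rik (0.318), against a median of 2.03 over all genes. For Ldhc they were Atp8b3 (0.326), Ccdc38 (0.334) and Crisp2 (0.363), against a median of 2.77. For Ldhb they were Aard (0.189), Gstm2 (0.229) and Gstm7 (0.259), against a median of 1.82. The 3 genes nearest to Ldhb did not include any gene nearest to Ldhc or Pgk2, and Ldhb ranked 613th among all genes by its difference from Ldhc. Gapdhs was nearest to Snx19 (0.152), Klhl26 (0.180) and Ptdss2 (0.183), Pdha2 to Muc1 (0.127), Hivep1 (0.156) and Cfap97 (0.164) and Hk1 to Actb (0.133), Dnajc8 (0.147) and Snx10 (0.149). These are descriptions over libraries that share their groups and depths.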

How the data were processed

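mRNA was measured in 9 libraries, 3 for each of 3 groups. The deposited values are raw counts per gene, made by the authors, from single-end reads trimmed with cutadapt (1.9), aligned to mm9 with STAR (2.5.2b) and counted with featureCounts. The annotation, strand setting and treatment of multiply matching reads are not given in the sources used here. The members and lists were chosen with earlier results of these data known. All columns matched a sample, and 0 were left unused.

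Counts were tested with edgeR 4.0.16 in R 4.3.3 (TMM scaling, filterByExpr, quasi-likelihood test, Benjamini-Hochberg adjustment over all genes tested), on pairs of groups. The script was tested on simulated data. CPM were computed with TMM factors over all 9 libraries. Ratios had 0.5 added to each count and were tested with an exact permutation test. The study states that the RNA came from independent cell preparations, which may be fewer than the libraries of a group. Which libraries came from separate preparations is not given. The p-values thus measure the spread between these libraries, which may be technical, and limits from 0 counts cover counting error only.

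Loci and lengths are from GENCODE M1 on the build of mm9, window copies from BLAST 2.17.0, and promoter windows from RefSeq GRCm38.p6, in which all 10 genes and Hk2 were found. Named genes are the 10 members, Hk2, Ldhal6b as a further LDH gene, up to 4 called genes per list and comparison with the smallest adjusted p, and 3 genes of similar pattern. Alternatives were RLE or library size scaling, no filter, 1 fit of all 9 libraries, DESeq2 1.42.0, the replicate number as a block, an adjusted p of at most 0.01, 5 added to each count in ratios, and each library left out.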

Additional observations from a re-analysis of the deposited data

How the results depend on the processing

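With all scalings, DESeq2 and the other fits run, the direction of every member called in a comparison was kept. Calls that changed are given here or beside the gene. In RA-sufficient PL over In/B, Hk1 became a call with library size scaling (-1.003), no filter (-1.014) and all 9 libraries in a single fit (-1.029), and Ldhc was lost in that fit (adjusted p = 0.0562). An adjusted p of at most 0.01 left 2 members and 7 listed pathway genes called in RA-deficient PL over In/B, where 15.8% of all genes were called. Between the PL groups it left 1 and 7, where 6.34% of all genes were called. With each library left out, the members called numbered 2 to 5 in RA-deficient PL over In/B and 1 to 6 between the PL groups, and the pathway genes 7 to 14 and 8 to 21. Between the PL groups the calls numbered 6 and 21 without RA-deficient replicate 3. Over all genes the fits with a library left out called between 17.1% and 26.1% in RA-deficient PL over In/B. Between the PL groups they called between 7.51% and 28.4%, the highest without RA-deficient replicate 3. In RA-deficient PL over In/B, library size scaling ended the call of Pdha2 (0.85, adjusted p = 0.0723) and no filter that of Pgk1 (adjusted p = 0.0671). The sign of Pdha1 in RA-sufficient PL over In/B turned to -0.00804 with library size only, -0.019 with no filter, -0.035 with all 9 libraries in a single fit and -0.00678 with DESeq2, and ran from -0.058 to 0.071 with libraries left out. In RA-deficient PL over In/B, values with libraries left out ran from -0.39 to 4.02 for Pgk2, -0.50 to 0.78 for Ldha, -4.14 to 0.96 for Ldhc and -0.20 to 0.17 for Pdha1, and the lowest of the first 3 genes came without RA-deficient replicate 3. With RA-deficient replicate 3 and In/B replicate 2 both left out, an alternative chosen after seeing the data, they were -0.29 for Ldha and -3.89 for Ldhc (adjusted p = 0.0113), and Pgk1 (adjusted p = 0.188) and Pdha2 (adjusted p = 0.0801) were no longer called. Ldhc was -0.013 and Pdha1 0.044 without In/B replicate 1. Between the PL groups Gapdh ran from -0.61 to 0.051 (without RA-deficient replicate 3), Pdha1 up to 0.087 and the log2 ratio of Gapdhs to Gapdh from -1.11 to 0.23 (without RA-deficient replicate 1). The causes were not tested. Scaling by library size alone moved the median log2 fold change of all genes from 0.004 to -0.31 in RA-deficient PL over In/B and from -0.089 to -0.27 between the PL groups.

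With the replicate number as a block, 7, 4 and 2 members were called, where 42.5%, 21.6% and 11.5% of all genes were. Pgk1 in RA-deficient PL over In/B was lost (adjusted p = 0.0976), Ldhc there was -1.96, and 9 pathway genes were called between the PL groups. Over 14010 genes, deviations of libraries with the same number correlated between -0.27 and 0.13, so the numbers were not taken as pairs. Depth limits Pgk2 in In/B, where 1 library had 0 counts and another 5.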
